A study of Mus musculus with 6 samples.

Results

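The neutrophil granule genes described here are 10 of the 57010 genes in the deposited table and were followed in mouse skin with and without imiquimod. They were taken by symbol and each matched 1 row. Ngp, Ltf, Camp and Lcn2 encode proteins of the secondary (specific) granules, Mmp8 and Mmp9 are placed here with the tertiary (gelatinase) granules, and Mpo and Elane encode proteins of the primary (azurophil) granules. Retnlg, a resistin-like secreted protein, and Ly6g, a surface antigen used to identify mouse neutrophils, mark mature neutrophils and are counted apart. The control group (CON, n = 3) is labelled wild type, with the treatment given as control. The imiquimod group (MOD, n = 3) is labelled with the treatment IMQ and had 62.5 mg of imiquimod, a Toll-like receptor 7 agonist, put on shaved back skin daily for 6 days, per the series' design text. By the same text, mice were injected with atropine and zoledronic acid before blood was drawn and the tissue was taken. The sources used here do not give strain, sex, age or any vehicle on control skin, and the labels do not say that each library is a separate animal.

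Neutrophils make their granules in sequence while they mature in the bone marrow. Genes for primary granule proteins are transcribed first, in promyelocytes, then those of specific granules and then those of gelatinase granules, and transcription of each set is largely shut down at the next stage. A neutrophil that has reached a tissue therefore carries granule proteins whose mRNA it may no longer hold. Several of these genes are also used outside neutrophils, Lcn2 and Camp by keratinocytes and Mmp9 by macrophages and keratinocytes.

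The promoters of both classes are shown because late and primary granule genes are read by different sets of transcription factors at different stages, with C/EBP-epsilon acting on specific granule genes and PU.1 on genes of both stages. Sequences are from RefSeq on GRCm38.p6 and cover the 250 bases before the annotated start, written 5′ to 3′ on the gene's strand. Capitals mark the letters TTGCNNAA or TTNNGCAA, a C/EBP-type motif on either strand, and GAGGAAGT or ACTTCCTC, a PU.1-type motif on either strand. The windows lie at chr2:32387740-32387989 (minus strand) for Lcn2, chr9:110419558-110419807 (plus) for Ngp, chr9:7558179-7558428 (plus) for Mmp8, chr11:87793534-87793783 (plus) for Mpo and chr10:79886062-79886311 (plus) for Elane.
Lcn2: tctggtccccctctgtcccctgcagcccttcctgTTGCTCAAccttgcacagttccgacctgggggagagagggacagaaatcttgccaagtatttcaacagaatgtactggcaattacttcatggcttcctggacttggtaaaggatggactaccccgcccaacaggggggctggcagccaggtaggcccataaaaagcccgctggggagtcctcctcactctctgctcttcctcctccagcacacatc
Ngp: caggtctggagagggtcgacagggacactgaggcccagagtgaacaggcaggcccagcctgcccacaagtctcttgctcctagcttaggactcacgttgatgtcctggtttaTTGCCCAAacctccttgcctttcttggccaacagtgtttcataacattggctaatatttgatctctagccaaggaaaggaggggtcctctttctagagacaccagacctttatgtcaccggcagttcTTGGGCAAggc
Mmp8: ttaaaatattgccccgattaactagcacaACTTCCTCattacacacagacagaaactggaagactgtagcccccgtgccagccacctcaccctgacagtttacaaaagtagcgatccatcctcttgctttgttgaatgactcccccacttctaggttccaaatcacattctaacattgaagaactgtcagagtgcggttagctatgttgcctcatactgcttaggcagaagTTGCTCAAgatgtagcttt
Mpo: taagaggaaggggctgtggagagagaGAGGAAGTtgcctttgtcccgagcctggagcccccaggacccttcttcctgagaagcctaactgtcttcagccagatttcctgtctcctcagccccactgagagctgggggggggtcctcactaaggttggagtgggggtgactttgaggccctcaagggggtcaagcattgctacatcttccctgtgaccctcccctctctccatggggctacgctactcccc
Elane: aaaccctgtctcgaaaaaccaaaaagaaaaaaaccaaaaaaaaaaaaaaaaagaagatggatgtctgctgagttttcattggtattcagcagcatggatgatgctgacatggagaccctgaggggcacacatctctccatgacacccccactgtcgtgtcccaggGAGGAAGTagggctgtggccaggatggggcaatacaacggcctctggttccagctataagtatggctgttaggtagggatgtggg

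Of the 10 genes, 9 had a promoter entry, and the C/EBP letters were found before 6 of them. These were 4 of 5 late granule genes (Lcn2, Ngp, Mmp8 and Ltf) and both mature transcripts (Retnlg and Ly6g), but neither primary granule gene. The window of Camp, the remaining late gene with an entry, held neither motif and is not shown. The Lcn2 and Mmp8 windows held the same 8 letters, TTGCTCAA, at 216 and 19 bases before the start, and Ngp held a match at 138 and another at 11 bases before it. The PU.1 letters were found before Mpo, Elane, Mmp8 and Ly6g. Over all 32851 promoter windows of this length, 9.56% held the C/EBP letters and 2.44% the PU.1 letters. The motifs and the sequences shown were chosen after the windows had been read, and a match is a run of letters, not a bound site.

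**Figure D1:**
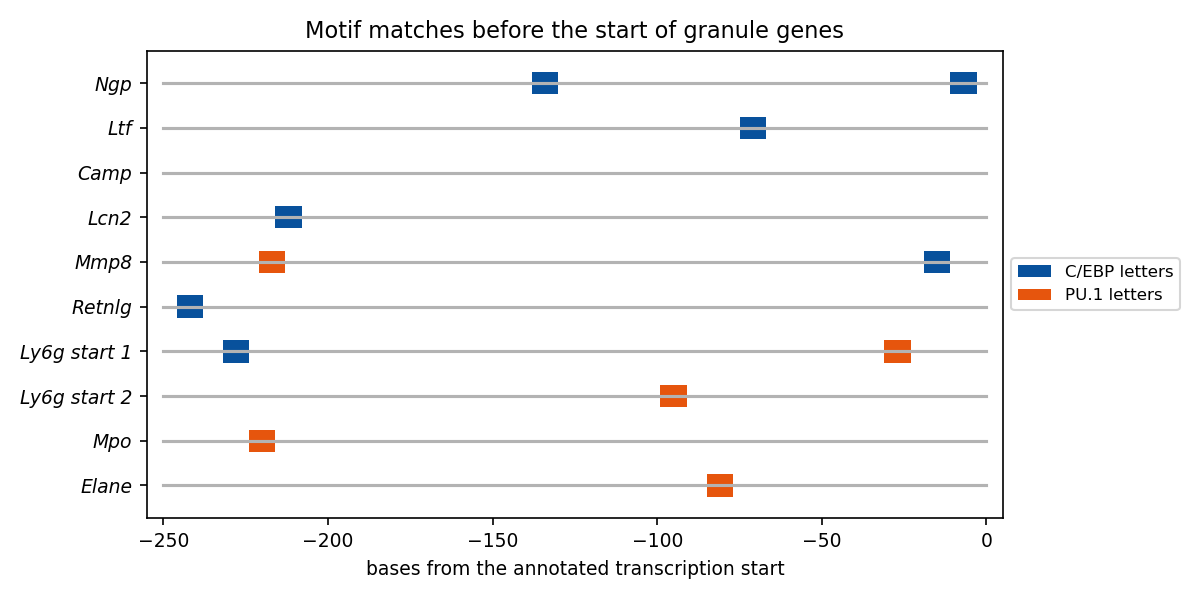
Matches to the C/EBP letters (blue) and the PU.1 letters (orange) in the 250 bases before the annotated start of the 9 genes with an entry, with both annotated starts of Ly6g; the x axis is distance from the start in bases. Blue marks lie before late and mature genes, the Camp window holds no mark, and the windows of Mpo and Elane hold 1 orange mark each.

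The values are TPM, transcript abundances scaled for gene length and library total, so levels can be compared between genes. TPM keeps no sequencing depth, so depth is unknown and no detection floor can be given. The number of genes listed above 0 ranged from 23311 to 24647 per library. The tissue label held: the keratinocyte genes Krt5 and Krt14 stood at 1132 TPM or more in all 6 libraries and the fibroblast gene Dcn at 546 TPM or more. The controls were split. H2-Ea, an MHC class II gene, was at 194 and 162 TPM in CON 1 and CON 3 but listed at 0 in CON 2 and in MOD 1 to 3. The ribosomal protein gene Rps18 was split in the same way, at 64.6 and 76.1 TPM in CON 1 and CON 3, at 3622 TPM in CON 2 and at 1954 to 2247 TPM in MOD. A second fit, called the CON 2 fit, has a term for this split and so sets MOD against CON 2 alone, a lone control assumed to vary like the other libraries. Its values are given for the 5 tested genes of the 10, and elsewhere where it ended a call or moved a called fold by over 1.5 times. Tissue makeup differed between the groups. The summed level of 5 hair follicle keratins was 2368 to 11353 TPM in controls, against 0.56 to 1.68 TPM after imiquimod, and all 5 fell in both fits. The summed level of 5 skeletal muscle genes was 2498 to 8494 TPM in controls, against 16822 to 25925 TPM after imiquimod, and that of 7 red cell and platelet genes 612 to 1548 and 14610 to 25132 TPM. Of the muscle genes 4 rose (2 in the CON 2 fit), and of 6 tested blood genes 6 rose (5 in the CON 2 fit). By comparison, 12.5% of all tested genes rose and 36.1% fell over all controls. The part of hair follicle, muscle and blood RNA in the results was not tested.

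After imiquimod 4 of the 6 late granule genes rose, while both primary granule genes were near 0 TPM with and without treatment. Among the 10 genes, 5 met the expression filter (at least 1 TPM in at least 3 libraries), namely Lcn2, Camp, Mmp8, Mmp9 and Retnlg, and all of these rose (limma on log2(TPM + 1), adjusted p below 0.05). Of the 15323 genes tested, 12.5% were called higher and 36.1% lower. Retnlg and Mmp8 lay below 1 TPM in every control and met the filter through MOD, which fixed their direction, while Lcn2, Camp and Mmp9 reached 1 TPM in controls as well. Ngp, Ltf, Ly6g, Mpo and Elane missed the filter and are given as values. In 6 of the 10 genes, 5 of them tested, every MOD library lay above every control, as was the case for 15.5% of all tested genes. The median log2 difference of all tested genes was -0.31. In bulk tissue, more cells of a type and more RNA per cell cannot be told apart.

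**Figure D2:**
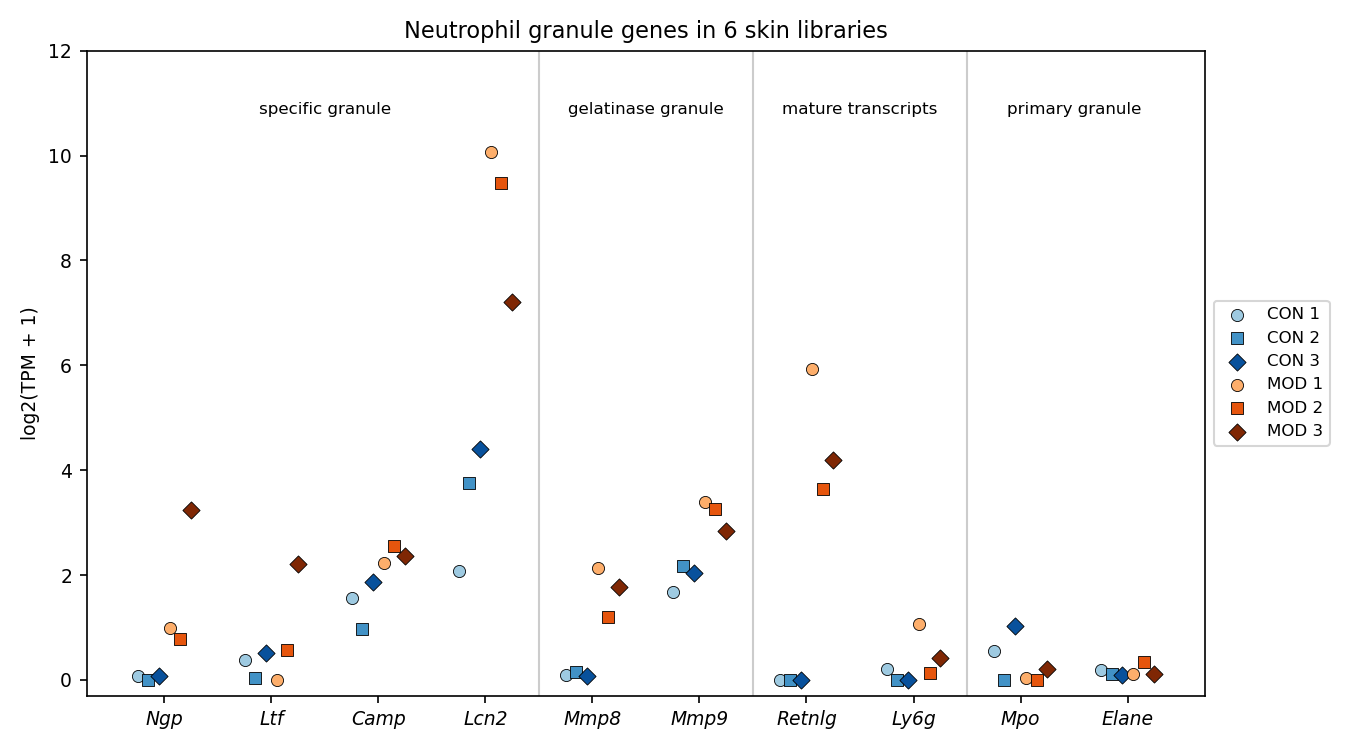
Level of each of the 10 genes as log2(TPM + 1) in every library, blue for CON and orange to brown for MOD, with genes ordered by granule class. Lcn2 and Retnlg show the widest gaps between groups, Ngp and Ltf stand out in MOD 3, and Mpo and Elane lie near 0 in most libraries.

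Lcn2 encodes lipocalin 2, which binds bacterial siderophores and withholds iron. It was the most abundant of the 10 in every library, at 3.24, 12.5 and 20.3 TPM in CON 1 to 3 and at 1068, 711 and 148 TPM in MOD 1 to 3. The groups did not overlap, although MOD 1 held 7.23 times as much as MOD 3. The mean rose 53.6-fold (log2 difference 5.50, SE 0.86, limma adjusted p = 0.0037). In the CON 2 fit the log2 difference was 5.17 (adjusted p = 0.039). Lcn2 made up 93.2, 96.2 and 77.5% of the summed level of the 10 genes in MOD 1 to 3, so a sum over them mostly reads this gene. Without it, the other 5 late granule genes together stood at 4.54 to 6.27 TPM in controls, against 15.9 to 24.8 TPM after imiquimod.

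Camp encodes the cathelicidin antimicrobial peptide CRAMP. It was present in controls, at 1.94, 0.97 and 2.66 TPM, and stood at 3.68, 4.85 and 4.13 TPM in MOD. The MOD libraries lay close together and all above the controls, with a 2.27-fold higher mean. The log2 difference was 0.91 (SE 0.25, limma adjusted p = 0.025) and 1.40 in the CON 2 fit (adjusted p = 0.023). This call was lost without CON 1 (adjusted p = 0.053), without MOD 1 (0.056), without MOD 2 (0.080), without MOD 3 (0.059) and without the expression filter (0.077). Keratinocytes are a known source of Lcn2 and Camp, and of 6 keratinocyte markers 1 rose (Krt14) and 1 fell (Dsp), with a summed level of 3503 to 5390 TPM in controls, against 5475 to 6055 TPM after imiquimod. The Krt14 call was lost in the CON 2 fit (limma adjusted p = 0.085). By comparison, 12.5% of all tested genes rose and 36.1% fell over all controls. The part of keratinocytes in the Lcn2 and Camp values was not tested.

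Ngp and Ltf, the other specific granule genes, were low and highest by far in MOD 3. Ngp, neutrophilic granule protein, was at 0.05, 0 and 0.05 TPM in controls, against 1.00, 0.72 and 8.45 TPM after imiquimod. Every MOD library was above every control, but MOD 3 held 11.7 times as much as MOD 2. Ltf encodes lactoferrin, an iron-binding protein. It was at 0.30, 0.02 and 0.42 TPM in controls, against 0, 0.48 and 3.62 TPM after imiquimod, so the groups overlapped and MOD 1 was listed at 0. Two-sided exact permutation tests on log2(TPM + 1) gave p = 0.10 for Ngp, the smallest that 3 against 3 libraries allow, and p = 0.50 for Ltf. In the fit without an expression filter neither passed (log2 difference 1.63, adjusted p = 0.15 for Ngp, and 0.62, adjusted p = 0.49 for Ltf), where 5.12% of all genes were called higher.

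The gelatinase granule genes rose. Mmp8, neutrophil collagenase, was at 0.07, 0.11 and 0.05 TPM in controls, against 3.38, 1.30 and 2.40 TPM after imiquimod. The controls were near 0 and every MOD library was well above them. The log2 difference was 1.59 (SE 0.26, limma adjusted p = 0.0041), or 1.55 in the CON 2 fit (adjusted p = 0.040). Its size depends on the pseudocount, being 2.24 with 0.5 and 3.72 with 0.1 added in place of 1. Mmp9, gelatinase B, was already measurable in controls, at 2.18, 3.49 and 3.09 TPM, and stood at 9.54, 8.58 and 6.17 TPM in MOD. Its mean rose 2.77-fold (log2 difference 1.21, SE 0.22, limma adjusted p = 0.0055), but it did not pass in the CON 2 fit (1.00, adjusted p = 0.061). Mmp9 was more abundant than Mmp8 in every library, 31.1 to 61.8 times in CON and 2.57 to 6.60 times in MOD. The difference between the 2 changes was not tested.

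Retnlg separated the groups fully. Every control was listed at 0, while MOD 1 to 3 held 59.6, 11.5 and 17.4 TPM, and the gene ranked second among the 10 genes in each MOD library. The log2 difference was 4.59 (SE 0.54, limma adjusted p = 0.0018), with adjusted p = 0.022 in the CON 2 fit. With every control at 0 its size is set by the pseudocount, being 5.55 with 0.5 and 7.84 with 0.1. No fold is given against a group listed at 0. Its relative Retnla, a resistin-like gene of fat and macrophages, stood at 526, 909 and 113 TPM in the same controls. Retnla was singled out after its values were seen, and its level does not show whether Retnlg could have been detected there. Ly6g was far lower, at 0.15, 0 and 0 TPM in controls, against 1.09, 0.09 and 0.34 TPM after imiquimod. The Ly6g groups overlapped (two-sided exact permutation p = 0.20), and close copies in the Ly6 cluster make its value uncertain. In MOD, Retnlg exceeded Ly6g by 54.7, 127 and 51.2 times.

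The primary granule genes lay near 0 in both groups. Mpo encodes myeloperoxidase, which makes hypochlorous acid, and was at 0.47, 0 and 1.05 TPM in controls, against 0.03, 0 and 0.16 TPM after imiquimod. Elane encodes neutrophil elastase and was at 0.14, 0.08 and 0.07 TPM in controls, against 0.08, 0.26 and 0.08 TPM after imiquimod. Neither gene separated the groups (two-sided exact permutation p = 0.40 for Mpo and 0.70 for Elane), and with depth unknown such levels cannot show whether either changed. The Mpo difference rested on CON 1 and CON 3, since CON 2 was listed at 0, as MOD 2 was. Together the 2 primary genes summed to 0.08 to 1.12 TPM in controls, against 0.11 to 0.26 TPM after imiquimod, while the 6 late granule genes summed to 7.78 to 26.6 and 172 to 1085 TPM. Cfd, the adipocyte gene for complement factor D, lies close to Elane in the RefSeq annotation and was named after its values were seen. It stood at 1614 to 4639 TPM in the same libraries.

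The wider granule lists, of which the 10 genes are part, were counted in the same fit. In that fit 12.5% of all tested genes were called higher and 36.1% lower. Of 6 primary granule genes, 1 met the filter and 0 changed (limma, with 1 at an unadjusted p below 0.05). That gene was Prtn3, proteinase 3, at 6.46, 2.04 and 6.68 TPM in controls, against 2.18, 2.12 and 1.10 TPM after imiquimod (log2 difference -1.02, adjusted p = 0.069, and -0.14 in the CON 2 fit). Ctsg, cathepsin G, was at 0.34 to 0.80 TPM in controls, against 0.51 to 1.18 TPM after imiquimod. In the fit without a filter, 0 of the 6 were called by limma and 0 had an unadjusted p below 0.05. Of 10 specific granule genes 5 were tested and 5 rose (3 in the CON 2 fit), and of 7 gelatinase granule and membrane genes 6 were tested and 6 rose (3 in the CON 2 fit, where 4.35% of all tested genes were called higher).

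Among the specific granule genes, Hp, haptoglobin, rose from 143, 583 and 299 TPM to 2971, 3526 and 936 TPM (log2 difference 2.87, limma adjusted p = 0.012, and adjusted p = 0.13 in the CON 2 fit). Like Lcn2 it was lowest in MOD 3. Pglyrp1, a peptidoglycan recognition protein, rose from between 1.52 and 2.31 TPM to between 11.6 and 16.5 TPM (2.31, adjusted p = 0.00093). Chil1, a chitinase-like protein, rose by 0.88 (adjusted p = 0.019), a call lost in the CON 2 fit (adjusted p = 0.12). Among the gelatinase granule and membrane genes, Itgam and Itgb2, the 2 chains of the integrin Mac-1, rose by 2.52 and 2.00, Slc11a1, a metal transporter of phagocytes, by 2.08 and Adam8, a membrane protease, by 1.43 (adjusted p from 0.0031 to 0.019). In the CON 2 fit the differences of Itgam and Itgb2 were 1.68 and 1.11 and passed, while those of Slc11a1 and Adam8, both 1.07, did not (adjusted p = 0.20 and 0.067). These 4 genes are also expressed by macrophages. All 8 macrophage and monocyte markers were tested and 7 rose (2 in the CON 2 fit), with a summed level of 165 to 571 TPM in controls, against 1145 to 1509 TPM after imiquimod. Of all tested genes 12.5% rose, and the part of macrophages in the changes of these granule and membrane genes was not tested.

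**Figure D3:**
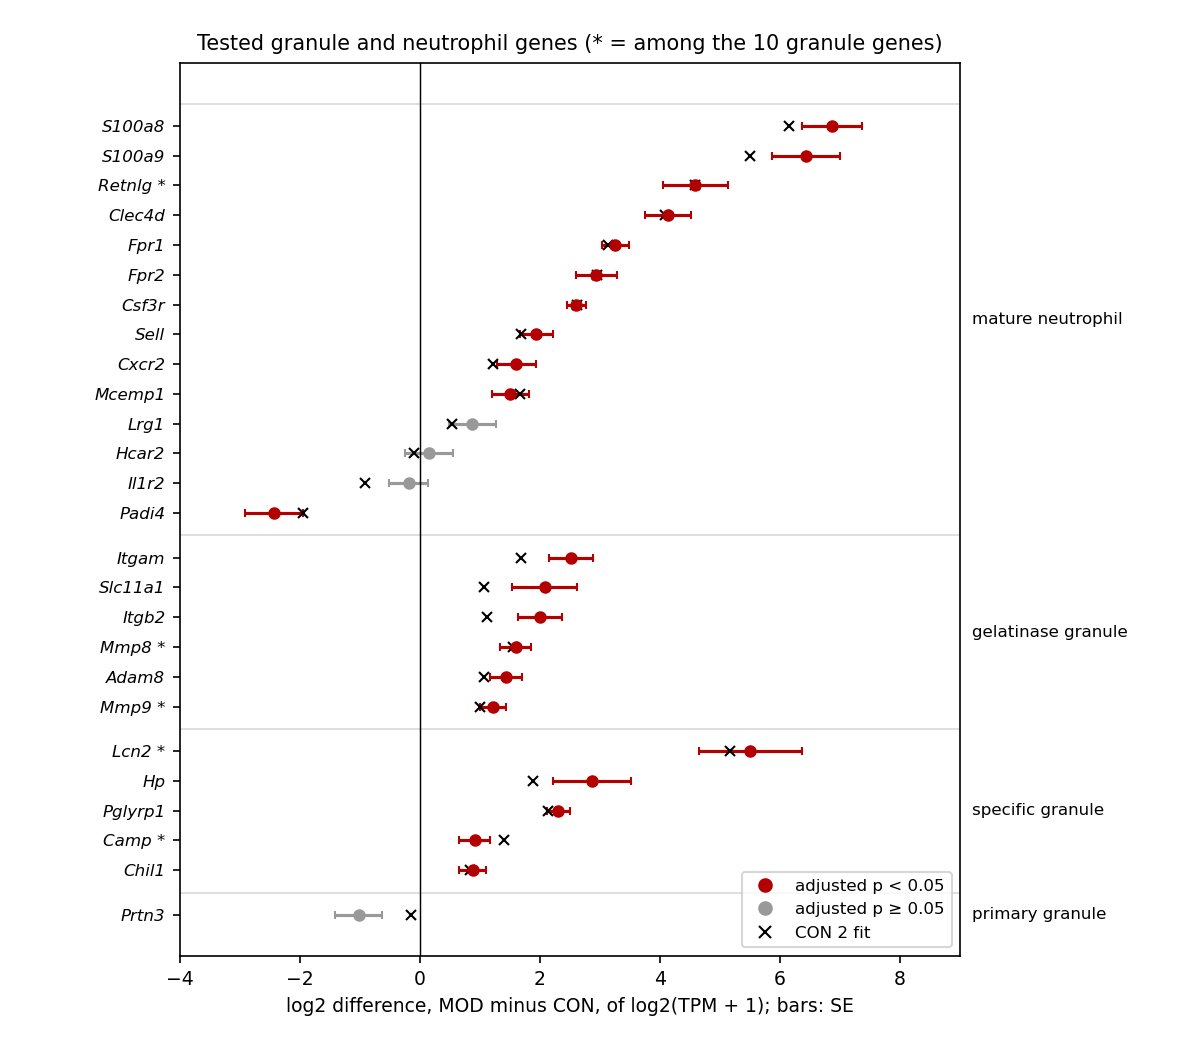
Log2 difference (MOD minus CON) with its SE for every tested gene of the 4 granule and neutrophil lists, red where the limma adjusted p was below 0.05, with crosses for the CON 2 fit. All tested specific and gelatinase genes lie to the right of 0, Prtn3 to the left in grey, and Padi4 to the left in red.

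Most tested transcripts of mature neutrophils rose, where 12.5% of all tested genes rose and 36.1% fell. Of 17 such genes 14 were tested, of which 10 rose and 1 fell (9 and 1 in the CON 2 fit). S100a8 and S100a9, the chains of calprotectin, rose by 6.86 and 6.43 (6.15 and 5.50 in the CON 2 fit), and keratinocytes also make them. Clec4d, a lectin receptor, rose from 0.24, 0.33 and 0.28 TPM to 42.4, 15.2 and 15.1 TPM (4.13, limma adjusted p = 0.0011). Fpr1, the receptor for formylated bacterial peptides, rose from 0, 0.17 and 0.05 TPM to 11.8, 6.68 and 9.89 TPM (3.26, adjusted p = 0.00064). Padi4, which citrullinates histones in extracellular traps, went the other way, from 29.9, 9.32 and 8.41 TPM to 2.17, 2.20 and 0.88 TPM (-2.43, adjusted p = 0.0077). Its fall did not pass in the CON 2 fit (adjusted p = 0.080). The 1 gene called lower there was the decoy receptor Il1r2 (-0.91, adjusted p = 0.048), set against CON 2 alone, and over all 3 controls it did not pass (-0.19, adjusted p = 0.65).

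Of 7 precursor genes and factors, 3 were tested and 2 rose (2 in the CON 2 fit), while Cebpe, Gfi1, Fcnb and Ms4a3 lay below 1 TPM in every library. Cebpe, the factor C/EBP-epsilon, was at 0.05 to 0.42 TPM in controls, against 0 to 0.37 TPM after imiquimod, Ms4a3 was at 0.09 TPM in MOD 2 and 0 in every other library, and Fcnb, ficolin B, was at 0.07 TPM or less throughout. Of all tested genes 12.5% rose. The 3 tested genes of this list are not confined to precursors. Cebpa, the factor C/EBP-alpha, which fat cells also express, was at 74.1, 147 and 104 TPM in controls, against 118, 163 and 105 TPM after imiquimod and did not pass (log2 difference 0.28, limma adjusted p = 0.44). Spi1, which encodes PU.1 and is expressed in macrophages, rose from 11.1, 22.0 and 7.58 TPM to 45.2, 46.2 and 47.3 TPM (log2 difference 1.82, limma adjusted p = 0.0061, and 1.04 in the CON 2 fit), and Chil3, a chitinase-like protein also made by macrophages, from 0.04, 1.29 and 0.04 TPM to 63.9, 44.8 and 35.6 TPM (5.14, adjusted p = 0.00067, and 4.38 in the CON 2 fit).

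Several inhibitors of granule proteases rose, where 12.5% of all tested genes rose and 36.1% fell. Of 10 inhibitors and receptors of granule proteins 9 were tested, of which 5 rose and 0 fell (4 in the CON 2 fit). Slpi, an inhibitor of elastase and cathepsin G, rose from 4.73, 1.68 and 1.80 TPM to 56.6, 15.9 and 18.6 TPM (log2 difference 2.93, limma adjusted p = 0.0054). Serpina3n rose by 2.52 (1.84 in the CON 2 fit), Timp1, an inhibitor of Mmp8 and Mmp9, by 2.13 and Serpinb1a, an inhibitor of elastase, by 1.22 (adjusted p from 0.00093 to 0.0033). Slpi was above Elane in every library. The lipocalin 2 receptor gene Slc22a17 was at 5.16 to 11.0 TPM in controls, against 4.20 to 8.50 TPM after imiquimod and did not pass (adjusted p = 0.53).

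The MOD libraries did not rank alike across the 10 genes. Retnlg, Ly6g, Lcn2, Mmp8 and Mmp9 were highest in MOD 1, as were Csf3r, Fpr1 and S100a8. Camp was highest in MOD 2. Other genes of the wider lists ranked otherwise, with Fpr2 and Pglyrp1 highest in MOD 3 and Lrg1 in MOD 2. Ngp and Ltf were highest in MOD 3, the library with the lowest Lcn2. Per library, Retnlg exceeded Ngp by 59.6 times in MOD 1, 15.9 times in MOD 2 and 2.06 times in MOD 3. MOD 3 also had the highest sum of red cell and platelet genes, 25132 TPM against 14610 and 15810 TPM, and the part of blood in the Ngp and Ltf values was not tested. Of 5 eosinophil markers 3 were tested and 1 rose, where 12.5% of all tested genes rose. This was Prg2 (0.09, 0 and 0.26 TPM in controls, against 1.26, 2.12 and 2.34 TPM), which met the filter through MOD. Ear2 was at 16.3, 69.9 and 6.10 TPM in controls, against 3.87, 9.45 and 6.80 TPM after imiquimod. Over all controls neither Ear2 (log2 difference -1.48) nor Ear1 passed. In the CON 2 fit, set against CON 2 alone, the Ear2 difference was -3.27 and was called lower. Eosinophil peroxidase, Epx, was at 0.02 TPM in CON 1 and listed at 0 in every other library.

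**Figure D4:**
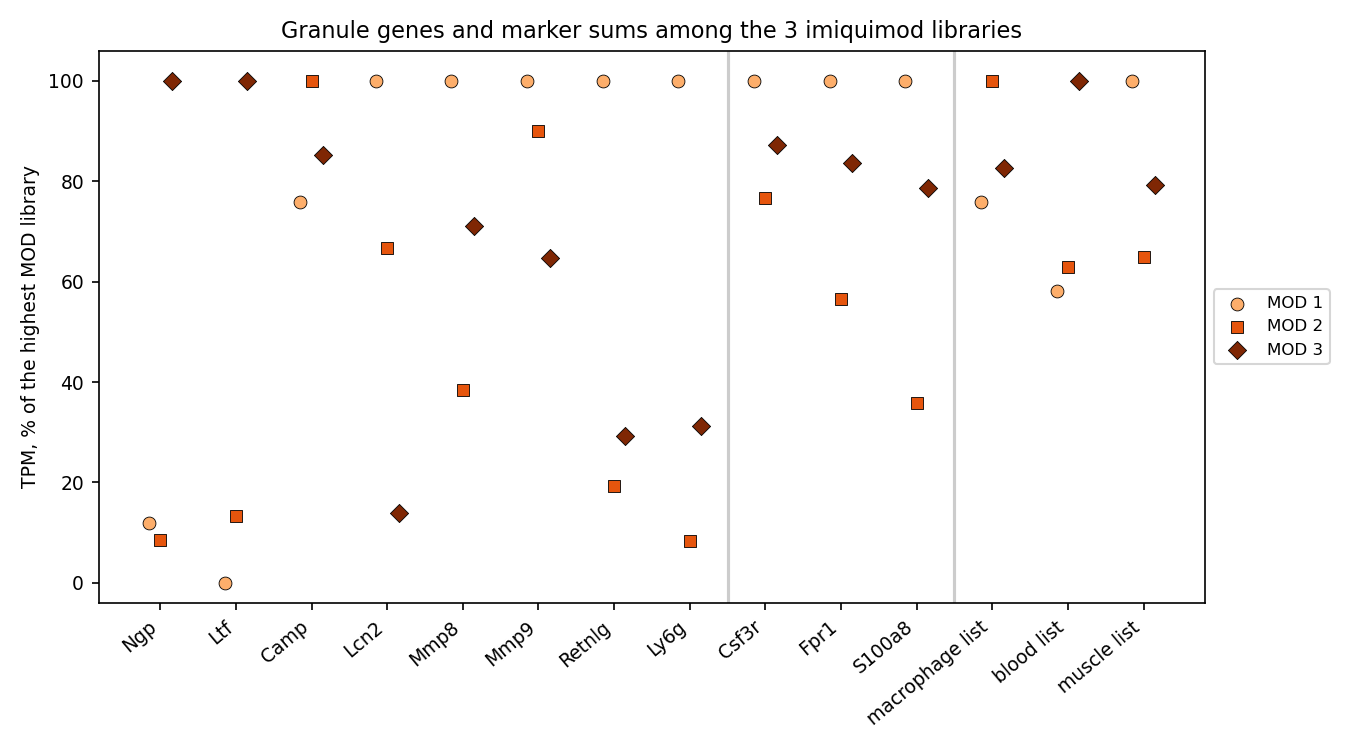
TPM in each imiquimod library as a percentage of the highest of the 3, for 8 granule genes, for 3 other neutrophil genes and for the summed macrophage, blood and muscle lists. MOD 1 is at 100 for Retnlg and Lcn2, where MOD 3 is at 29.2 and 13.8, while MOD 3 is at 100 for Ngp and Ltf.

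The genes whose pattern was most like that of the 5 tested granule genes were sought over the 6 libraries by Pearson's r of log2(TPM + 1) with their mean standardised profile. Among the 5 closest were Csta3, a stefin (r = 0.999), Rrad (0.996), Loxl3 (0.996) and Mtfr1l (0.995). Csta3 was at 0, 0 and 0.94 TPM in controls, against 69.1, 38.6 and 23.5 TPM after imiquimod. With 2 groups this far apart, 261 of 11507 candidates had r above 0.95, so the order among them says little.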

How the data were processed

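The authors deposited 1 table of TPM values for 57010 genes in 6 skin libraries, made on GRCm39, per the submitters' processing notes. Per the labels' protocols, RNA was extracted with TRIzol, treated with DNase I and made into libraries with a SMARTER mRNA-Seq kit. The sources used here do not name the aligner, annotation or quantification program. Columns were matched to samples by the labels: CON 1 to 3 are columns CON1, CON3 and CON4. A gene length column, also deposited, was not tested.

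Genes that reached 1 TPM in 3 or more libraries (15323) were fitted as log2(TPM + 1) in limma 3.58.1 under R 4.3.3 (eBayes with trend, two-sided, Benjamini-Hochberg over all genes tested, threshold 0.05). Differences are on that scale, on which low genes change less than in TPM. P-values measure the spread between these libraries, which may be technical. The procedure was run on simulated data with large changes planted only in genes well expressed in controls. That run does not cover genes as low in controls as Retnlg, Mmp8, Camp and Mmp9. The genes, lists and alternatives were chosen with earlier results of these data known. Named from each list were up to 4 genes with the largest change past the threshold, up to 2 moving the other way, or the 2 most abundant where none passed. Other genes named (such as Csf3r, Cebpe or Slc22a17) were chosen after their values were seen. Alternatives were other pseudocounts, filters and scalings, a replicate block, a term for the H2-Ea split of the controls (the CON 2 fit) and leaving out each library. Promoter sequences were matched by symbol to RefSeq on GRCm38.p6; Mmp9 was not among the matches. Of the genes most alike in pattern, 1 is not reported here.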

Additional observations from a re-analysis of the deposited data

How the results depend on the processing

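The rise of Retnlg, Lcn2 and Mmp8 passed under all 16 alternatives listed in the methods, that of Mmp9 under all but the CON 2 fit, and that of Camp under 11 of 16. With the added alternative that ran the CON 2 fit on all genes with no filter, chosen after seeing the data, 0 of the 10 genes (0 late granule genes) passed limma's threshold, with 5 at an unadjusted p below 0.05, all higher; 210 genes were called higher and 1782 lower in all. The 5 tested genes kept a positive difference throughout. Without 1 library each time, 4 to 5 of the 10 genes were called higher, and over all genes 1303 to 2025 were called higher and 3559 to 5487 lower. Over all genes the counts (1914 higher, 5538 lower) turned to 3097 and 2868 with median-of-ratios scaling, to 2818 and 3177 with quantile normalization and to 667 and 2747 with the CON 2 fit, so the share of higher calls moved from 25.7% to 51.9, 47.0 and 19.5%. The median of all tested genes, -0.31, became 0.00 with median-of-ratios scaling; relative to that median the log2 difference of Camp was 1.22 in TPM and 1.15 with that scaling, and that of Lcn2 5.81 and 5.83.

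The shared replicate numbers did not pair the libraries: deviations of same-numbered libraries correlated at 0.0046, 0.069 and 0.066, and not every library correlated best with its own number. With the replicate block 5 of the 10 genes were called higher, 4 of them late granule genes and 0 primary, and 1914 genes were called higher and 5343 lower in all. Depth is unknown, so values under about 1 TPM (Ngp, Ltf, Ly6g, Mpo and Elane in most libraries) set no limit on a change.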

Other observations

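Lpo, the lactoperoxidase gene and the annotated neighbour of Mpo, was singled out after its values were seen. It was at 0, 0.18 and 0.06 TPM in controls, against 2.03, 1.12 and 1.60 TPM after imiquimod, with no overlap, and rose by 1.25 on the log2(TPM + 1) scale (SE 0.20, limma adjusted p = 0.0039, and 0.043 in the CON 2 fit). It met the filter through MOD, which fixed its direction. In the 3 MOD libraries Lpo was above Mpo, whose highest value there was 0.16 TPM.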
